A study of Mus musculus with 6 samples.

Results

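CD8+ T cells with a deleted IFNγ receptor gene were compared between a tumor and its draining lymph node (LN). They came from CD8-IFNγRKO mice, whose genotype was CD8-Cre IFNgR1flox/flox Rosa26Tomato, so that Cre driven by a CD8 promoter removed the IFNγ receptor chain from CD8+ T cells and switched on a red reporter in the same cells. Mice carried B16-OVA, a mouse melanoma line that expresses ovalbumin, and tissues were taken on day 12. For each tissue, cells of 3 mice were pooled, sorted as CD45+CD3+CD8+Tomato+, and made into 1 single-cell library with a 5′ kit that counts unique molecular identifiers (UMIs). A cell entered when it had 200 to 6000 detected genes, at most 3% mitochondrial UMIs, and when the T cell genes Cd2, Cd8a and Cd8b1 had at least 1 UMI apiece. The tumor library gave 8638 such cells from 12214 barcodes and the LN library 6754 from 11298, together 15392 of the 29156 cells that passed in the whole series. The remaining cells came from tumor and LN of control mice, genotype CD8-Cre Rosa26Tomato, which carry the same Cre and reporter with an intact receptor and the same tumor line. Because the Tomato reporter was part of the sort, cells of the CD8 lineage in which Cre had never acted were not collected.

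IFNγ is made by activated T cells and NK cells and binds a receptor of 2 chains, Ifngr1 and Ifngr2. The receptor activates the kinases Jak1 and Jak2 and, through them, transcription factors that switch on interferon regulatory factors, GTPases of the cell's own defence and the machinery that loads peptides on MHC class I. Type I interferons use another receptor but share Jak1, and they induce many of the same genes. In the LN most CD8+ T cells are resting naive cells, whereas tumor-infiltrating CD8+ T cells are mostly activated cells that carry cytotoxic granules and inhibitory receptors.

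All UMIs of the cells of a library were added up per gene and given as counts per 1000000 UMIs of that library (CPM). Each difference is the log2 ratio of tumor over LN CPM with 1 CPM added to each side, which understates the difference of genes at a low level. With 1 library on each side there was no replicate of either tissue and no test was possible. The 95% intervals in the text, exact Poisson for a CPM, conditional binomial for a ratio and binomial for a share of cells, cover counting error only and not the spread between mice. A gene is called higher or lower here when its ratio was at least 2-fold. Such a ratio cannot tell fewer cells of a kind from less RNA of that gene per cell.

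The targeted gene was read first. Ifngr1 stood at 237 CPM in the CD8-IFNγRKO tumor, 137 CPM in the CD8-IFNγRKO LN, 718 CPM in the control tumor and 182 CPM in the control LN. Receptor-deficient cells thus had less Ifngr1 RNA than control cells of the same tissue, but it was far from 0 and its ratio of tumor over LN was still 0.79 (interval 0.74 to 0.84). Reads of a 5′ library begin at the start of the transcript, so RNA from an allele that has lost an internal exon can still be counted. RNA from an allele that Cre had not cut would be counted too, because the reporter shows Cre action at Rosa26 only. How many cells kept an intact allele was not tested, and the counts do not tell whether the protein is made. Cells are called receptor-deficient here by genotype. With each cell thinned to 1600 UMIs, 34.1% of CD8-IFNγRKO tumor cells had an Ifngr1 UMI against 69.1% of control tumor cells (80.7% and 92.1% at full depth). Shares of cells with a UMI are given at 1600 UMIs per cell from here on, with the share at full depth in brackets. As a background for such shares, Cd74, an invariant chain of B and dendritic cells, had a UMI in 0.921% of tumor cells and 0.596% of LN cells (5.24% and 1.55%).

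CD8 T cell marker genes were present in both libraries, though 3 of the genes used for this check were also required of each cell. All 8 CD8 T cell marker genes differed by less than 2-fold between the tissues, with a median log2 ratio of 0.27, and summed to 7258 CPM in the tumor and 6225 CPM in the LN. Markers of other cells were summed list by list. Macrophage and dendritic cell markers came to 103 CPM in the tumor and 24.6 CPM in the LN, and Fcer1g, a signaling chain that activated T cells can also use, made up 49.7 CPM of the first sum. B cell markers came to 43.5 and 254 CPM. Of these, the antibody gene Ighm made up 16.6 and 227 CPM, whereas the light chain gene Igkc had 24.7 CPM in the tumor and 0.587 CPM in the LN. Fibroblast and endothelial markers came to 4.46 and 48.4 CPM, nearly all of it Pecam1 with 4.37 and 48.1 CPM. Markers of melanoma cells came to 3.91 and 2.87 CPM, those of CD4+ or regulatory T cells to 10.7 and 22.3 CPM, and those of neutrophils and mast cells to 0.340 and 0.173 CPM. NK and γδ T cell markers came to 41.3 and 38.5 CPM, nearly all of it Eomes, which CD8+ T cells also express. Red cell markers were at 0.117 CPM in the tumor and at 0 in the LN. C1qa, C1qc and Adgre1, which define macrophages, were the 3 of 16 macrophage and dendritic markers with no UMI in the LN. They reached at most 0.596 CPM in the tumor. With every cell that had at least 2 UMIs of macrophage, B cell or melanoma markers left out, which kept 6235 of the 8638 tumor cells and 4716 of the 6754 LN cells, 1181 genes were at least 2-fold higher in the tumor and 843 lower, next to 1186 and 857 with these cells.

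The 2 libraries differed in depth and handling. Tumor cells had a median of 9399.5 UMIs and 2875.5 genes, LN cells 3865.5 UMIs and 1539.5 genes, and the base cells held 94004352 and 28960267 UMIs in all. Ribosomal protein genes took 19.6% of the tumor UMIs and 32.1% of the LN UMIs. Tumors were digested with enzyme at body temperature whereas LN were only mashed, so handling and tissue cannot be told apart. The tumor and LN libraries shared 73 cell barcodes, 1.08% of the smaller one, and any pair of the series shared between 51 and 82. Cells that looked like doublets were kept.

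Of 7670 genes with a mean of at least 10 CPM, 1186 (15.5%) were at least 2-fold higher in the tumor and 857 (11.2%) at least 2-fold lower. These shares are the background for every list count below. A kept gene below 10 CPM in the LN passed this filter through the tumor alone, so its direction follows from the filter. The reverse holds for a kept gene below 10 CPM in the tumor. Both hold for every such gene named below, whether or not it is marked again. The median ratio over all 7670 genes was 0.05. The direction of a small difference depended on the scaling. With a library size that omits TCR, ribosomal protein, mitochondrial and heat shock genes, the median ratio moved by -0.26, and 1010 genes were higher and 1545 lower, so that 39.5% of the genes past 2-fold were higher in place of 58.1%. With TMM library sizes the median moved by 0.10. Of the 241 genes chosen for naming, 28 changed sign under another scaling, none of them with a log2 ratio above 0.25 in size. Where a value of these genes is printed, its sign holds for scaling to all UMIs of the library.

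The genes with the largest ratios were those of an activated killer cell. Gzmb, the granule protease granzyme B, had 4872 CPM in the tumor and 1.86 CPM in the LN, a log2 ratio of 10.73 (10.47 to 10.99). Mt1, a metallothionein that binds zinc, had 1026 and 1.00 CPM, and Pdcd1, which encodes the inhibitory receptor PD-1, had 619 and 1.04 CPM. Among the 15 highest were also Lgals3, Lag3, Havcr2, Nrgn, Rgs16, Ccl3, Klrc1, Mt2, Gzmc, Gzmf, Gzmk and S100a4. Gzmf had no UMI in the LN, so its 275 CPM in the tumor stood at least 2657-fold above a floor of 3 UMIs in the LN library. Reads of the neighboring granzyme genes Gzmc to Gzmg could be shared between them because their sequences are alike, and their single values are uncertain. The 15 lowest were genes of resting and recirculating T cells. Ccr9, a receptor for gut homing, had 0.11 CPM in the tumor and 107 CPM in the LN, and Igfbp4 had 3.54 and 440 CPM (log2 ratio -6.60, -6.73 to -6.48).

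**Figure D1:**
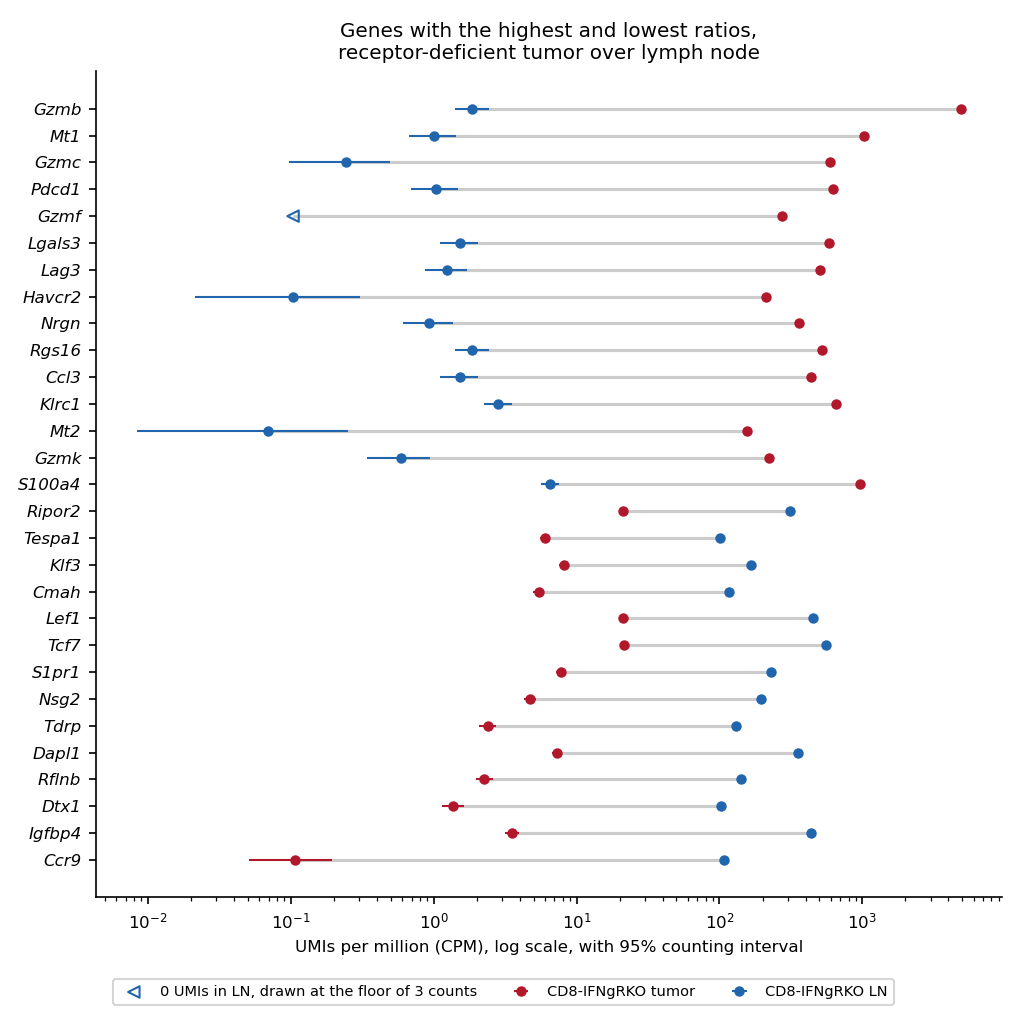
CPM (log axis) of the 15 genes with the highest and 14 of the 15 with the lowest ratio in CD8-IFNγRKO tumor (red) and CD8-IFNγRKO LN (blue), among genes with a mean of at least 50 CPM. Points are single libraries, bars are 95% counting intervals and the triangle marks a gene with no UMI in the LN, drawn at the floor. The 15 high genes are below 10 CPM in the LN, and Gzmb reaches 4872 CPM in the tumor.

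RNA of the ligand itself was higher in the tumor. Ifng had 425 CPM in the tumor and 10.3 CPM in the LN, a log2 ratio of 5.23 (5.08 to 5.39), and the control ratio was 5.19. Of tumor cells 35.9% and of LN cells 1.04% had an Ifng UMI (74.5% and 2.40%). The other receptor chain went the opposite way. Ifngr2 had 0.51 CPM in the tumor and 36.1 CPM in the LN, a ratio of -4.62 (-4.77 to -4.45) beside -4.25 in the control. Jak1 was lower in the tumor (228 against 478 CPM, -1.06), and the values of Jak2 (-0.49) and the feedback inhibitor Socs3 (-0.59) stayed within 2-fold. In the pathway list as a whole, 1 of 10 genes was higher and 2 were lower, with a median of -0.12. Of the 6 genes of the type I interferon receptor and the STAT factors, Stat3, the main factor downstream of IL-6 and IL-10 receptors, was the gene past 2-fold, with 420 CPM in the tumor and 103 CPM in the LN. The median of that list was 0.04 and became -0.21 with the library size that omits TCR, ribosomal protein, mitochondrial and heat shock genes.

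Interferon regulatory factors (IRFs) split by kind. Irf8, a factor of myeloid cells that activated CD8+ T cells also switch on, had 268 CPM in the tumor and 1.28 CPM in the LN (6.88, 6.61 to 7.15). Irf4, which TCR signaling induces, had 29.8 and 4.18 CPM (2.57). Irf1, an early target of the pathway, had 191 and 223 CPM (-0.22), and in the control 319 and 239 CPM (0.41). Its CD8-IFNγRKO ratio was 0.015 with each cell weighted equally. It was 0.45 with cells that had at least 2 UMIs of mitosis genes left out, so its sign depends on these choices. Over the 7 IRF genes kept, 2 (28.6%) were higher and none lower, beside 15.5% and 11.2% of all genes kept. The 2 higher ones, Irf8 and Irf4, passed the 10 CPM filter through the tumor alone, so their direction follows from it. In the tumor 28.6% of cells, and in the LN 0.15%, had an Irf8 UMI (68.4% and 0.503%). The LN share did not exceed that of Cd74.

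The GTPases that interferons induce showed both directions in the pooled counts. Gbp3 had 51.2 CPM in the tumor and 10.2 CPM in the LN (2.22, 2.06 to 2.38), Gbp6 119 and 39.4 CPM (1.57), and Gbp7 114 and 49.0 CPM (1.20). Tgtp1 had 11.9 CPM in the tumor and 51.7 CPM in the LN (-2.03, -2.14 to -1.92). Of the 12 members kept, 3 were higher and 1 lower, with a median of 0.26. Gbp genes are close copies of each other, as are Tgtp1 and Tgtp2, so counting could have shared reads between them. The control ratios were 1.85 for Gbp3, 1.36 for Gbp6, 0.79 for Gbp7 and -1.77 for Tgtp1, so each of the 4 genes pointed the same way with the receptor intact.

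Promoters of 4 of these genes are shown because they differ in the interferon motifs next to the start of transcription while the genes differ in direction. Capitals mark GAS, the IFNγ-activated site TTCNNNGAA, and ISRE, the motif of GAAA, any 2 bases and GAAA bound by the type I interferon factors, each searched on both strands. Every run is the 200 bases before the transcription start from RefSeq (GRCm38.p6), 5′ to 3′ on the strand of the gene.
Irf8, chr8:120736158-120736357, plus strand: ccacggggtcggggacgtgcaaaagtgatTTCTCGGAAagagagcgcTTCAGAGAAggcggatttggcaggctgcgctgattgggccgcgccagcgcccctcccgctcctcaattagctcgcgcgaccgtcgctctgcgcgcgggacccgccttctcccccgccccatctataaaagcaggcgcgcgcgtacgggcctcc
Gbp3, chr3:142559844-142560043, plus strand: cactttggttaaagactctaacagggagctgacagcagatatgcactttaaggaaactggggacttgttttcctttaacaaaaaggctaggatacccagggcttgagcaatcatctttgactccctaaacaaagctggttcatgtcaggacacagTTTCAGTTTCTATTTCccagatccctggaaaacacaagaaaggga
Ifitm2, chr7:140955962-140956161, minus strand: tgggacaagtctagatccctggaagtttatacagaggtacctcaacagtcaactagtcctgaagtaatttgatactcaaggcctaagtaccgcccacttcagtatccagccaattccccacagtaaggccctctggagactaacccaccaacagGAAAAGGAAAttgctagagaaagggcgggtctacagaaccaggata
Tgtp1, chr11:48992247-48992446, minus strand: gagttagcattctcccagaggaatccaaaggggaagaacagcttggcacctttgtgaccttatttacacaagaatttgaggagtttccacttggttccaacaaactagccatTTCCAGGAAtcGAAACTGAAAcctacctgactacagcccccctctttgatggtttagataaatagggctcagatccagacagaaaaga

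Irf8 held 2 GAS, which began 171 and 153 bases before the start, and no ISRE. Gbp3 held 2 overlapping ISRE on the opposite strand, at 45 and 39 bases. Ifitm2 held 1 ISRE at 46 bases. Tgtp1 held 1 GAS at 88 and 1 ISRE at 77 bases. Of all 32851 mouse promoters in the table, 5.49% held a GAS in this window, 2.27% an ISRE and 0.204% both. A match in letters does not show that a factor binds there. The 4 genes were picked for display, and only promoters with a match were printed. Tgtp1, the GTPase that was lower in the tumor, and Gbp3, the one with the highest ratio, thus both carried an ISRE. Of the 8 kept GTPases with a promoter in the table, 8 held an ISRE and 5 a GAS, and of 23 antiviral genes 13 held an ISRE and 4 a GAS. The other interferon lists held fewer ISRE. Of 7 IRF genes none held an ISRE and 2 a GAS. Of 16 MHC class I processing genes 3 held an ISRE and 1 a GAS. Of 5 IFITM and Ly6 genes 1, Ifitm2, held an ISRE and none a GAS. Among the 6125 genes kept that had a promoter in the table, 2.74% held an ISRE and 5.42% a GAS. In these counts a gene held a motif when any of its promoters did.

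Antiviral interferon-stimulated genes were split, with more of them higher in the tumor. Of 29 kept, 9 (31.0%) were at least 2-fold higher and 1 (3.45%) was lower, beside 15.5% and 11.2% of all genes kept. The median was 0.35, against 0.05 for all genes, or 0.10 with the library size that omits TCR, ribosomal protein, mitochondrial and heat shock genes. Ifi27l2a had 3096 CPM in the tumor and 606 CPM in the LN (2.35, 2.33 to 2.37). Isg20, a nuclease that degrades viral RNA, had 93.1 and 19.4 CPM (2.21). Isg15, the ubiquitin-like modifier, had 186 and 76.8 CPM (1.27). Zbp1, a sensor of Z-form nucleic acid (1.70), Oas1a, which makes the messenger that activates RNase L (1.68), and Rsad2, an inhibitor of viral replication (1.60), were also higher. Ifi206, a member of the DNA-binding p200 family, had 36.7 CPM in the tumor and 84.4 CPM in the LN (-1.18). Rsad2, at 5.21 CPM in the LN, passed the 10 CPM filter through the tumor alone, so its direction follows from it. Among the 4 members measured but not kept, Oas2 had a ratio of -1.73, Oasl1 of -1.57, Oasl2 of -0.91 and Ifi44 of 0.55. In control mice 3 of the 29 genes kept were higher and 1 lower, with a median of 0.32.

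Surface proteins of the IFITM and Ly6 families had the highest median of the interferon lists, 3.64. Ly6a, the activation antigen Sca-1, had 2090 CPM in the tumor and 20.2 CPM in the LN (6.62, 6.51 to 6.74). Of tumor cells 89.0% and of LN cells 2.62% carried a Ly6a UMI (96.5% and 5.996%), while in control mice the shares were 87.9% and 9.25% (95.9% and 18.6%). Ifitm1, Ifitm2 and Ifitm3 encode membrane proteins that block virus entry. Ifitm2 had 57.4 and 0.21 CPM, Ifitm3 57.1 and 0.45 CPM, and Ifitm1 34.2 and 1.83 CPM (3.64, 3.37 to 3.90). In the control, Ifitm1 had 155 CPM in the tumor and 0.13 CPM in the LN, so its control ratio of 7.10 was larger by 3.47. Ly6c2, a marker of memory and effector cells, had 1834 and 732 CPM (1.33). Of 7 genes of the list kept, 5 (71.4%) were higher and none lower, beside 15.5% and 11.2% of all genes kept. Ifitm1, Ifitm2 and Ifitm3 passed the 10 CPM filter through the tumor alone, so their direction follows from it. Among the 3 not kept, Ly6k had a ratio of -2.955 (0.39 and 9.81 CPM), Ly6g5b of 0.53 and Ly6c1 of 0.17.

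Few antigen presentation genes were past 2-fold. The immunoproteasome subunit Psmb9 had 501 CPM in the tumor and 163 CPM in the LN (1.62), the peptide transporter Tap1 287 and 101 CPM (interval 1.44 to 1.55), and the subunit Psmb8 1104 and 524 CPM (1.07). These 3 were the members past 2-fold among 18 kept, a share close to the 15.5% of all genes, and the list median was 0.38 in both genotypes. The class I light chain B2m had 1973 and 1498 CPM (0.40), and the heavy chain H2-K1 2409 and 2153 CPM (0.16, whose sign changes with the scaling).

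**Figure D2:**
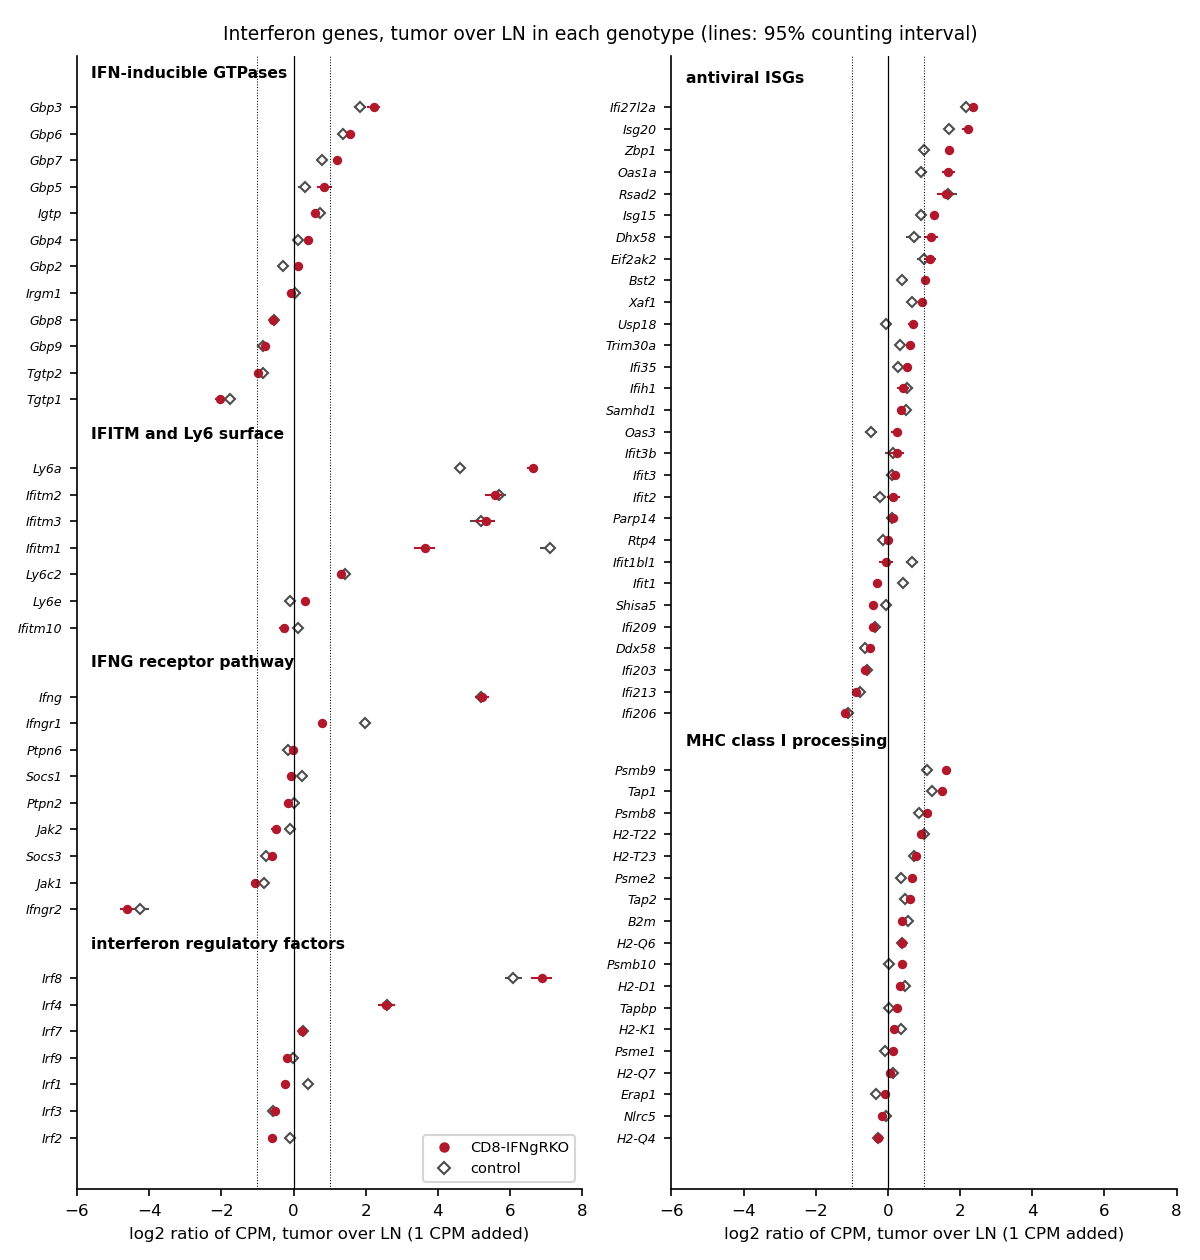
Log2 ratio of tumor over LN for interferon genes kept, in CD8-IFNγRKO (red points) and control (open diamonds). Bars are 95% counting intervals, the solid line is no difference and dotted lines mark 2-fold. Irf8, Ly6a, Ifitm2, Ifitm3 and Ifng lie beyond 5 in both genotypes except Ly6a at 4.62 in the control, while Ifitm1 and Ifngr1 stand apart between the genotypes.

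Genes of the naive and stem-like state were low in the tumor. Of 13 factors kept, 11 were at least 2-fold lower and none higher, with a median of -2.89, and the control median was -2.54. Tcf7, which encodes TCF-1 and keeps T cells naive or stem-like, had 21.6 CPM in the tumor and 552 CPM in the LN (-4.62, -4.68 to -4.55). Its partner Lef1 had 21.1 and 454 CPM (-4.36). Klf2, which maintains quiescence and drives S1pr1, had 239 and 2299 CPM (-3.26), and Id3, a factor of memory precursors, had 3.73 and 73.1 CPM (-3.97). Myb, a regulator of stem-like exhausted cells, had 22.3 CPM in the tumor and 16.4 CPM in the LN (0.42).

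The receptors that take T cells into and out of LN had the same direction. S1pr1, the egress receptor, had 7.76 CPM in the tumor and 229 CPM in the LN (-4.71), and the LN chemokine receptor Ccr7 62.0 and 640 CPM (-3.35). Itgae, which encodes CD103 and holds cells in epithelium, had 0.43 CPM in the tumor and 85.0 CPM in the LN (-5.92). The early activation and retention antigen Cd69 was also lower in the tumor (115 against 374 CPM, -1.70). Receptors of activated and migrating cells went the other way, with Cd44 at 82.1 and 14.7 CPM (2.40) and the integrin chain Itgb1 at 211 and 40.3 CPM (2.36). Of 13 homing, egress and residence genes kept, 3 were higher and 6 lower.

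Cytotoxic granule genes were far higher in the tumor. Of 16 kept, 14 (87.5%) were higher and none lower, beside 15.5% and 11.2% of all genes kept. The list median was 5.45, or 6.11 when the 4 genes with no UMI in the LN were set at their bound. These 4 and Gzmb, Gzma, Gzmk and Gzmc passed the 10 CPM filter through the tumor alone, so their direction follows from it. The list median was 4.20 with cells that had at least 2 UMIs of mitosis genes left out. Perforin, Prf1, had 1000 CPM in the tumor and 43.9 CPM in the LN (4.48). Gzma and Gzmk, the granzymes with trypsin-like activity, had 175 and 0.66 CPM (6.73) and 222 and 0.59 CPM (7.13). Gzmd and Gzme had no UMI in the LN and were at least 401-fold and 481-fold higher in the tumor. Nkg7, a granule membrane protein, was present in both tissues at 3004 and 589 CPM (2.35). Lamp1, a membrane protein of all lysosomes, had 64.9 and 108 CPM (-0.72). Of tumor cells 87.1% and of LN cells 0.134% had a Gzmb UMI (92.5% and 0.503%), and the LN share did not exceed that of Cd74.

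Inhibitory receptors were higher as well. Of 15 kept, 11 (73.3%) were higher and 1 (6.67%) was lower, beside 15.5% and 11.2% of all genes kept. The median was 4.94. Lag3, Pdcd1, Havcr2, Tigit and Entpd1 passed the 10 CPM filter through the tumor alone, so their direction follows from it. Lag3, which binds MHC class II, had 507 CPM in the tumor and 1.24 CPM in the LN (7.82, 7.54 to 8.09). Havcr2, which encodes TIM-3, had 210 CPM in the tumor and 3 UMIs in the LN, a ratio of 2032 with an interval of 695 to 9852. Tigit had 316 and 7.25 CPM (5.26), Ctla4 450 and 36.0 CPM (3.61), and Entpd1, the ectonucleotidase CD39, 111 and 0.52 CPM (6.20). Btla, an inhibitory receptor of naive cells, was the member that was lower, with 4.32 and 17.6 CPM (-1.80). Of 10 costimulatory receptors, 6 were higher and 1 lower. Tnfrsf9, which encodes 4-1BB, had 677 and 7.25 CPM (6.36) and Tnfrsf4, which encodes OX40, 183 and 2.52 CPM (5.70), whereas Slamf6, a marker of stem-like cells, had 8.05 and 50.8 CPM (-2.52). Tnfrsf9 and Tnfrsf4 passed the 10 CPM filter through the tumor alone and Slamf6 through the LN alone, so their direction follows from it. Of 13 killer lectin-like receptor genes 5 were kept, and these 5 were higher. Klrc1, Klre1, Klri2 and Klrk1 passed the 10 CPM filter through the tumor alone, so their direction follows from it. Among the 8 not kept, Klra3 had a ratio of 0.21, Klra6 of -0.16 and Klrg1 of 2.76. Klrk1, the activating receptor NKG2D, had 297 and 1.80 CPM (6.74).

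Transcription factors of effector and exhausted cells followed. Of 20 kept, 14 (70.0%) were higher and none lower, beside 15.5% and 11.2% of all genes kept. The median was 1.88. Bhlhe40, a regulator of effector cytokines, had 678 CPM in the tumor and 8.08 CPM in the LN (6.23). Prdm1, which encodes Blimp-1, had 50.9 and 1.10 CPM (4.62), and Tbx21, which encodes T-bet, 88.2 and 4.90 CPM (3.92). Bhlhe40, Prdm1 and Tbx21 passed the 10 CPM filter through the tumor alone, so their direction follows from it. Tox, the factor that establishes exhaustion, had 109 and 67.6 CPM (0.68), within 2-fold. Eomes had 40.5 and 36.7 CPM.

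Chemokines were higher in the tumor, and their receptors and those of cytokines split. Of 9 chemokines 5 were kept, and these 5 were at least 2-fold higher, beside 15.5% of all genes kept. Ccl1 and Ccl3 passed the 10 CPM filter through the tumor alone, so their direction follows from it. Ccl3 had 434 CPM in the tumor and 1.52 CPM in the LN (7.43), Ccl4 1233 and 17.2 CPM (6.09), and Ccl5 2764 and 152 CPM (4.17). These ligands attract T cells and myeloid cells. Xcl1, which attracts cross-presenting dendritic cells, had 151 and 16.9 CPM (3.09). Of 10 cytokines and TNF family ligands, 6 were higher and 1 lower, among them Csf1 at 63.3 and 0.14 CPM (5.82) and Tnf at 44.0 and 9.67 CPM (2.08). Chemokine receptors included Cxcr6, a receptor of tissue-resident cells, at 498 and 97.8 CPM (2.34). Cxcr3, the receptor for the chemokines that IFNγ induces, had 33.2 and 28.2 CPM (0.23). Of 17 cytokine receptors 9 were higher and 6 lower. Il2ra, the high-affinity IL-2 receptor chain, had 57.5 and 0.86 CPM (4.97), while the survival receptor Il7r had 47.5 and 389 CPM (-3.01) and Il6ra 1.39 and 81.5 CPM (-5.11). Csf1, Tnf and Il2ra passed the 10 CPM filter through the tumor alone and Il6ra through the LN alone, so their direction follows from it.

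**Figure D3:**
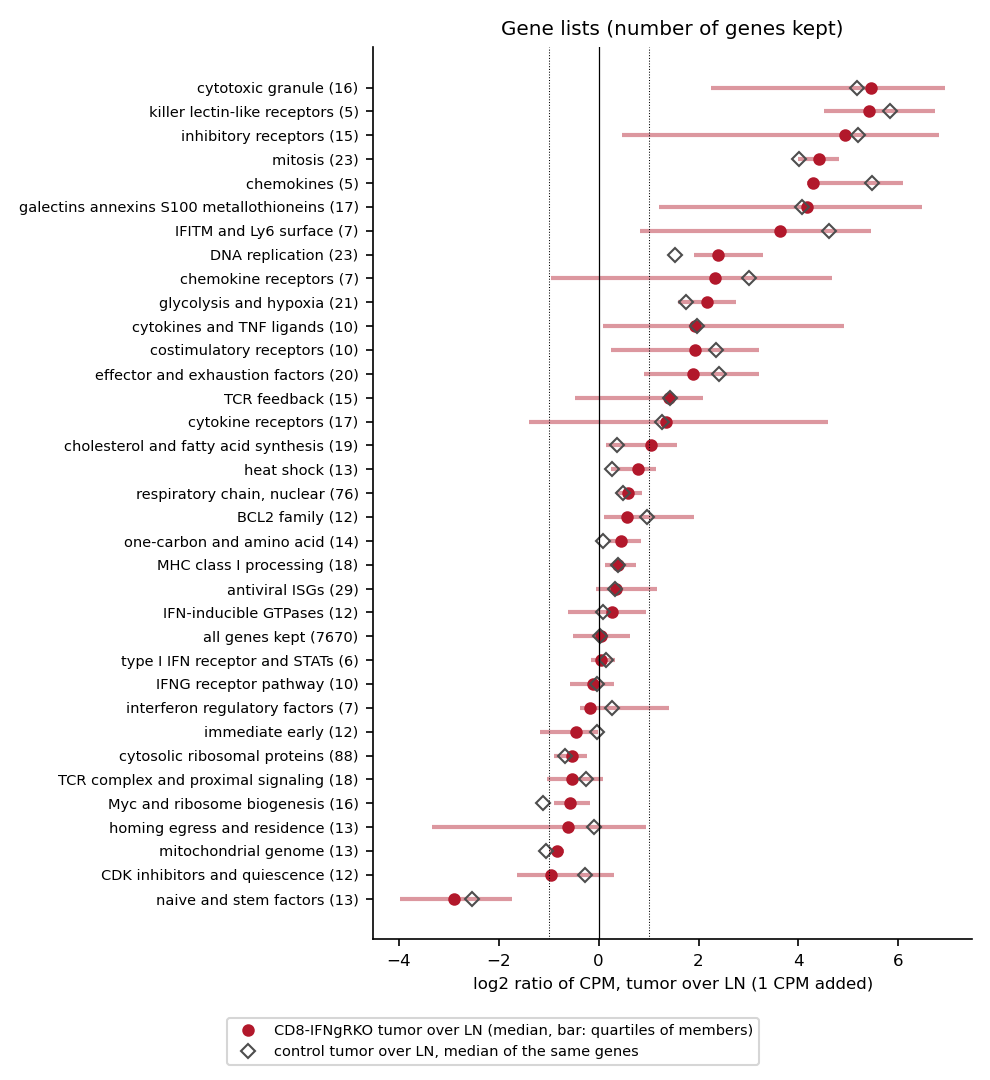
Median log2 ratio of tumor over LN in CD8-IFNγRKO cells for each gene list (red points, with bars from the lower to the upper quartile of the members) and the median of the same genes in control cells (open diamonds). Numbers in brackets are genes kept, the solid line is no difference and dotted lines mark 2-fold. Cytotoxic granule genes are highest at 5.45 and naive and stem factors lowest at -2.89, while the interferon lists other than IFITM and Ly6 surface genes lie close to 0.

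Cell cycle genes were higher in the tumor. All 23 mitosis genes kept and 21 of 23 DNA replication genes (91.3%) were higher, beside 15.5% of all genes kept. The medians were 4.41 and 2.39. The 24 mitosis genes listed summed to 2630 CPM in the tumor and 96.5 CPM in the LN. Genes below 10 CPM in the LN, among them Mki67, Ccna2, Pclaf and Rrm2, passed the 10 CPM filter through the tumor alone. Their direction follows from it. Mki67, the marker of cycling cells, had 183 CPM in the tumor and 7.29 CPM in the LN (4.47). Ccna2, the cyclin of S and G2 phase, had 161 and 2.62 CPM (5.48). Pclaf, a partner of the replication clamp, had 430 and 5.42 CPM (6.07), and Rrm2, the ribonucleotide reductase subunit that supplies DNA building blocks, 231 and 5.56 CPM (5.14). Of tumor cells 49.8% and of LN cells 0.507% had at least 2 UMIs of mitosis genes (75.5% and 2.03%). All 23 replication genes had a larger ratio in CD8-IFNγRKO than in control cells, whose median was 1.52, and 20 of the 23 mitosis genes did. In the control tumor 27.1% of cells had at least 2 mitosis UMIs (53.4%). Over all 7670 genes kept, 3796 had a larger ratio in CD8-IFNγRKO and 3874 a smaller one. The effector and exhaustion factors went the other way, with 19 of 20 ratios smaller in CD8-IFNγRKO than in control cells. Whether these list differences exceed the spread between mice was not tested.

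Metabolic genes differed by pathway. Of 21 glycolysis and hypoxia genes kept, 17 were higher and 1 lower, with a median of 2.17. Gapdh had 9086 CPM in the tumor and 1320 CPM in the LN (2.78), and the lactate exporter Slc16a3 had 141 and 0.52 CPM (6.55). Pdk1, a kinase that inhibits pyruvate dehydrogenase, was the lower one, with 19.0 and 63.1 CPM (-1.68). Cholesterol and fatty acid synthesis genes were higher for 10 of 19 kept, with a median of 1.05 beside 0.36 in the control. Among them Sqle had 24.4 and 4.28 CPM (2.27), Cyp51 49.9 and 9.53 CPM (2.27), and Fdps 77.7 and 27.6 CPM (1.46, beside -0.04 in the control). Slc16a3, Sqle and Cyp51 passed the 10 CPM filter through the tumor alone, so their direction follows from it. Nuclear genes of the respiratory chain had a median of 0.59, and 11 of 76 (14.5%) were higher, near the 15.5% of all genes kept. The 13 genes of the mitochondrial genome had a median of -0.83. Myc itself, a driver of growth, had a ratio of -1.08 (-1.12 to -1.03), and of 16 genes of the Myc and ribosome biogenesis list 1 was higher and 4 lower. Cytosolic ribosomal protein genes, taken by a name pattern that also drew in kinase genes such as Rps6ka1 (0.86) and Rps6ka3 (-1.09), had a median of -0.53.

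Genes of cell stress were read because only the tumor was warmed during digestion. Hspa1a, an inducible heat shock chaperone, had 698 CPM in the tumor and 203 CPM in the LN (1.78), while in the control it had 188 and 139 CPM (0.44). The related Hspa1b had 881 and 507 CPM (0.80) and in the control 278 and 321 CPM (-0.21). Both are near-identical copies, so reads could be shared between them. Of 13 heat shock genes kept, 4 were higher and none lower. Immediate early genes, which both stimulation and tissue handling induce, included 2 higher and 4 lower genes of 12. Fos had 210 CPM in the tumor and 977 CPM in the LN (-2.21) and Jun 258 and 826 CPM (-1.68), and both were also lower in the control tumor. Egr1 had 82.3 and 81.3 CPM. The lower genes depended on the cells used. With cells that had at least 2 mitosis UMIs left out, 2 of the 12 were higher and none lower. The median was then 0.31, against -0.46 over all cells. With cells with a Tcf7 UMI on both sides, 2 were higher and none lower (median 0.25). Against LN cells with a Ccl5 UMI, 1 was higher and 5 lower (median -0.68).

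By sums of naive and of cytotoxic genes, single cells of the 2 tissues hardly overlapped. Every cell was thinned to 1600 UMIs, which left out 278 of the tumor cells and 41 of the LN cells. The summed UMIs of 18 naive and homing genes had a median of 1 in 8360 tumor cells and 11 in 6713 LN cells. The summed UMIs of 18 cytotoxic granule genes had a median of 18 in the tumor and 2 in the LN, and 95.2% of tumor cells lay above the level that 90% of LN cells did not exceed. No LN cell of 6713 reached the tumor median of the cytotoxic sum, which allows a share of up to 0.0447% by the limit of 3 counts. In the tumor 242 cells (2.89%, 2.55 to 3.28) reached the LN median of the naive sum, and 13 cells (0.156%) reached both marks. In the control tumor 74 of 6402 cells (1.16%) reached the same mark of the naive sum. Interferon genes overlapped far more, with a median sum over antiviral genes and GTPases of 11 in the tumor and 6 in the LN.

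**Figure D4:**
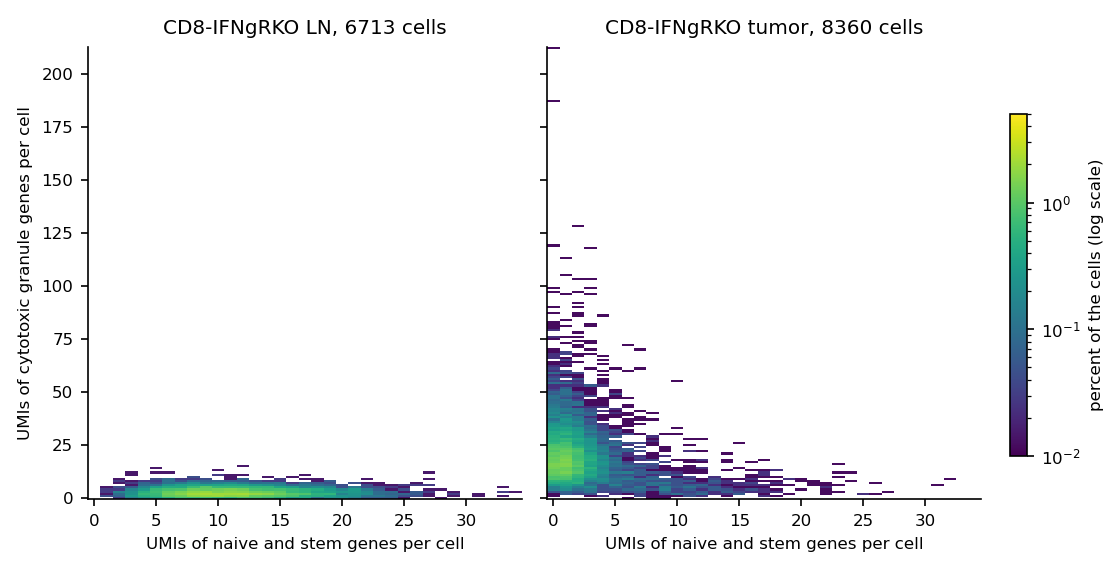
Cells of the CD8-IFNγRKO LN (left, 6713 cells) and tumor (right, 8360 cells), each thinned to 1600 UMIs, by UMIs of naive and homing genes (x axis) and of cytotoxic granule genes (y axis). Color gives the percent of that library's cells on a log scale. LN cells lie along the x axis around a median of 11, and tumor cells along the y axis with medians of 1 and 18.

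The comparison was repeated with cells restricted to more similar kinds. When only the 568 LN cells with a Ccl5 UMI, a mark of memory and effector cells, were set against all tumor cells, 1247 genes (16.3%) were higher and 730 (9.52%) lower. Of the cytotoxic granule genes 14 were still higher with a median of 5.36, and of the naive factors 11 were still lower with a median of -2.66. Gzmb stood at 5.96 CPM in these LN cells. Ly6c2 turned round, with 1834 CPM in the tumor and 2554 CPM in these cells (-0.48), and Cxcr3 had a ratio of -1.79. The IFITM and Ly6 genes had a median of 1.07, against 3.64 over all cells, with 4 higher and 1, Ifitm10 (-1.80), lower. Their control median under the same restriction was 3.85. Xcl1 had a ratio of 0.78 against 3.09 over all cells, beside -1.04 in the control under the same restriction.

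When only cells with a Tcf7 UMI were used on both sides (838 in the tumor, 5724 in the LN), 851 genes (11.1%) were higher and 354 (4.62%) lower. Choosing cells by Tcf7 itself sets the level of that gene, so its own ratio is not given, though it is counted among the naive factors here. The naive factors had a median of -0.91 with 6 lower, while the cytotoxic granule genes kept a median of 4.13, and Gzmb had 1774 CPM in the tumor and 2.02 CPM in the LN. These cells had medians of 4516 UMIs in the tumor and 3950 UMIs in the LN, so they differed less in depth. Antiviral genes and GTPases had larger median ratios among them than over all cells. Of 29 antiviral genes 14 were higher and none lower, with a median of 1.00, and of 12 GTPases 6 were higher and none lower, with a median of 0.91. Ifit3, a brake on viral RNA translation and part of the IFIT complex, had 97.5 CPM in the tumor and 24.5 CPM in the LN (1.95, 1.78 to 2.11) against 0.19 over all cells, and Ifit3 and Ifit3b are copies that could share reads. Irf7, the amplifier of type I interferon, had 241 and 96.3 CPM (1.32, against 0.25 over all cells), and Tgtp1 had 57.7 and 50.9 CPM (0.18, against -2.03). The IFITM and Ly6 genes went the other way, with a median of 1.90 against 3.64 over all cells and Ifitm1 at 0.79, and Irf8 had a ratio of 6.01 against 6.88. In the control the same restriction left 372 tumor cells, and the medians were 0.63 for the antiviral genes and 0.50 for the GTPases. Leaving out cells with at least 2 mitosis UMIs at full depth, which kept 2118 tumor cells with a median of 4633 UMIs, gave medians of 1.13 and 1.02 for these lists in CD8-IFNγRKO and 0.78 and 0.41 in the control.

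The tissue contrast of receptor-deficient cells was then set beside that of control cells, which share no library with it. The control comparison had 1072 of 7609 genes (14.1%) higher and 697 (9.16%) lower in the tumor. Over 7578 genes with a mean of at least 10 CPM in the 4 libraries, the log2 ratios of the genotypes correlated across genes with a Pearson r of 0.95, and 87.8% had the same sign. Genes are not independent replicates, so this is a description. Of the genes higher in CD8-IFNγRKO tumors, 77.9% were also higher in control tumors, which was 86.0% of those higher in the control. For lower genes the shares were 71.2% and 84.1%. The 4 genes past 2-fold in opposite directions were the TCR variable segments Trbv15, Trav8d-2, Trav7-4 and Trav21-dv12, named after their values were seen.

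Between the genotypes 89 genes had a ratio larger in CD8-IFNγRKO by at least 1 on the log2 scale and 57 a ratio smaller by as much. The differences have counting intervals but were not tested, since there was 1 library per tissue and genotype. Gzma had the largest difference upward among genes chosen by rule, 3.14 (2.76 to 3.48). Its level was 175 CPM in the receptor-deficient tumor against 44.7 CPM in the control tumor. The tumors account for only part of this difference, and the rest lies in the LN libraries. Xcl1 followed with 2.01 (1.84 to 2.18), Ly6a with 2.01 (1.88 to 2.14), and the replication genes Pclaf with 1.49 and Tk1 with 1.39. The difference of Ly6a came from the LN, where control cells had 76.8 CPM and receptor-deficient cells 20.2 CPM, while the tumors had 1906 and 2090 CPM. Gzme and Gzmd, which had no UMI in either LN, had 49.8 and 41.6 CPM in the receptor-deficient tumor against 364 and 282 CPM in the control tumor. Gzmf had 275 against 672 CPM. The neighboring Gzmc went the other way, with 593 against 209 CPM and a difference of 1.33 (1.03 to 1.62). Reads could be shared among these genes, so their single values are uncertain. Spp1, which encodes osteopontin and had at most 1 UMI in either LN, had 121 CPM against 376 CPM. Serpine2, a protease inhibitor, differed by -1.73 (-2.09 to -1.40) and Ccl5 by -1.27 (-1.33 to -1.22). Csf1, the macrophage growth factor, had 63.3 CPM in the receptor-deficient tumor and 238 CPM in the control tumor. Ccl5 had 2764 CPM in the receptor-deficient tumor and 8189 CPM in the control tumor. Of receptor-deficient tumor cells 73.4% and of control tumor cells 93.4% had a Ccl5 UMI (90.01% and 97.3%). The targeted gene itself had a difference of -1.18.

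**Figure D5:**
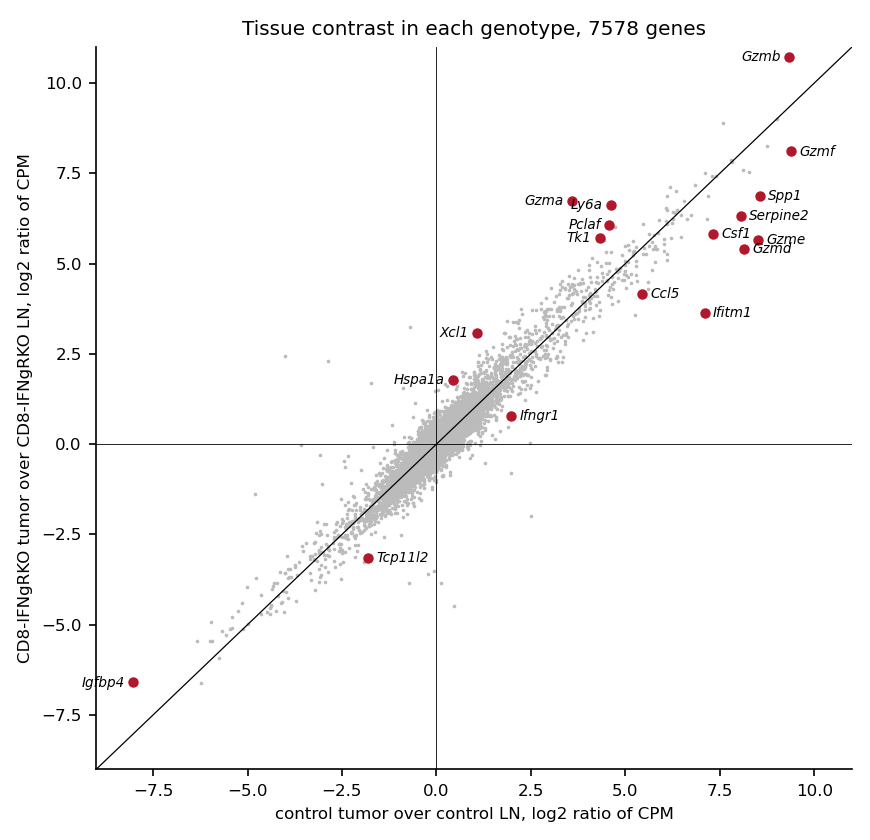
Log2 ratio of tumor over LN in control cells (x axis) and CD8-IFNγRKO cells (y axis) for 7578 genes, with 1 CPM added to each side. Grey points are genes, red points are Ifngr1, Ifitm1 and the genes with the largest differences chosen by rule, and the diagonal marks equal ratios. Points lie along the diagonal with r of 0.95, and Gzma, Ly6a and Xcl1 lie above it and Gzme, Gzmd and Ccl5 below it.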

How the data were processed

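The authors deposited a matrix of UMI counts for each library, made with Cell Ranger 6.0.0 per the file headers and the mouse 10x reference 2020-A (mm10). The counts were used as deposited. Cells were filtered as described, doublets were kept and no doublet caller was run, and the TCR contigs were not used. The number of unused value columns was 0. UMIs of the cells of a library were summed per gene and divided by their total. Genes with a mean of at least 10 CPM were kept, and 1 CPM was added before the log2 ratio. A list value is the median of its members. Cells were thinned to 1600 UMIs at random with a fixed seed, and the shares with a UMI come from these cells.

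Each library holds 3 pooled mice, so mice cannot be separated and depth alone sets the intervals, from 28960267 to 94004352 UMIs per library. A gene with 0 UMIs in the LN was set against a floor of 3 UMIs, 0.104 CPM there and 0.0319 CPM in the tumor. Named genes were the 15 highest and 15 lowest ratios above 50 CPM, the 2 highest and 2 lowest of each list, all interferon genes, the 8 largest differences between genotypes in each direction, stress genes, Ifngr1 and genes the study names, and a few more list members were picked for their role. Members and lists were chosen with earlier results of these data known.

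Library sizes by TMM (edgeR 4.0.16) and DESeq2 (1.42.0, size factors only) were alternatives, and neither tool was used for a test. Counting intervals came from scipy 1.17.1 and were tested on simulated data. These data were independent Poisson counts, the model that the intervals assume. The test therefore cannot show how the intervals hold where UMIs cluster in cells. Promoters were RefSeq sequences matched by symbol. Other tools were Python 3.11.15, numpy 2.4.6, pandas 2.3.3, matplotlib 3.10.9 and R 4.3.3. A few members of the lists were counted in them but are not reported here by name.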

Additional observations from a re-analysis of the deposited data

Results flagged for a closer look

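For 21 named genes the log2 ratio of tumor over LN had the opposite sign in CD8-IFNγRKO and control cells, with counting intervals on opposite sides of 0. The difference between the genotypes was not tested, and each rests on 1 library per tissue and genotype. Among interferon genes the differences (CD8-IFNγRKO minus control) were -0.79 for Ifnar1, a chain of the type I interferon receptor, -0.70 for Ifit1, -0.64 for Irf1, -0.40 for Ifitm10, -0.30 for Socs1, 0.21 for Psme1, 0.39 for Ifit2, 0.41 for Gbp2, 0.42 for Ly6e and 0.71 for Oas3. Among stress genes they were -0.59 for Dnaja1, -0.51 for Fosb, -0.50 for Jund, -0.47 for Ier2, 0.27 for Hsp90ab1, 0.60 for Hspe1 and 1.00 for Hspa1b. The replication gene Cdt1 differed by 0.83, the base excision gene Ung by 0.89, the transcription factor Eomes by 0.29 and the costimulatory receptor Cd226 by -0.67. Of these, Socs1, Gbp2, Ifit2, Oas3, Psme1, Cd226, Eomes, Hsp90ab1, Hspe1 and Jund had ratios whose sign changed with the scaling of the libraries. Cells with at least 2 UMIs of mitosis genes at full depth were 75.5% of the CD8-IFNγRKO tumor cells and 2.03% of the LN cells. Tumor cells without them had a median of 4633 UMIs, against 9399.5 over all tumor cells. Whether mitosis or depth moved the ratios that follow was not tested. Leaving out the cells with mitosis UMIs turned the CD8-IFNγRKO ratio to the sign of the control for Irf1 (0.45), Ifit1 (0.96), Ifnar1 (0.55), Ifitm10 (0.55), Fosb (0.44), Ier2 (0.44), Socs1 (0.76), Jund (0.34), Cdt1 (-0.68) and Ung (-0.31). With each cell weighted equally the first 4 had ratios of 0.015, 0.24, 0.17 and 0.21. Of the 21 genes, Ly6e, Dnaja1 and Hspa1b kept the sign of the CD8-IFNγRKO ratio under every alternative run.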

How the results depend on the processing

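Of 140 named genes past 2-fold, between 115 (cells with a Tcf7 UMI on both sides) and 140 (0.1 CPM added) were past it in the same direction under each alternative. With 10 CPM added, 520 genes were at least 2-fold lower. With a mean of at least 50 CPM, 519 were higher and 264 lower, the median over all genes was 0.21, and the cytokine receptors had a median of -0.35. With no CPM minimum 1989 were higher and 1596 lower. Without TCR, ribosomal protein, mitochondrial and heat shock genes in the library size 1545 were lower and the median was -0.22. With cells that had at least 2 mitosis UMIs left out, 797 were higher and 523 lower, and Aurka (-0.24), Kif20a (-0.35) and Dusp1 (0.034) changed sign. Choosing cells by mitosis genes itself lowers the level of those genes. With Tcf7 cells, Tgtp1 (0.18) and Tnfsf8 (0.048) changed sign, and with Ccl5 cells of the LN Ly6c2 (-0.48) did. Fewer genes or cells enter under these filters. Otherwise the cause was not tested. Single libraries leave no replicate to omit. No paired analysis was possible because each tissue and genotype had 1 library.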

Other observations

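Genes that decide survival and quiescence differed by member. The survival factor Bcl2 had 29.0 CPM in the CD8-IFNγRKO tumor and 142 CPM in the LN (log2 ratio -2.26), whereas its relative Bcl2a1d had 324 and 2.66 CPM (6.47), a value that counting may share with other Bcl2a1 copies. Pmaip1, which encodes the death-promoting protein NOXA, had 51.2 and 10.7 CPM (2.16). Of 12 BCL2 family genes kept, 5 were at least 2-fold higher and 2 lower. The cell cycle inhibitor Cdkn1a had 93.3 and 2.21 CPM (4.88). Pik3ip1, an inhibitor of PI3K signaling in resting T cells, had 3.79 and 78.9 CPM (-4.06), and Btg1, an anti-proliferative factor, had 442 and 1438 CPM (-1.70, beside -0.60 in the control). Of 12 genes of that list 2 were higher and 6 lower, with a median of -0.95. With cells that had at least 2 mitosis UMIs left out, 2 were higher and 2 lower (median -0.08), and Btg1 had a ratio of -0.49. With cells with a Tcf7 UMI on both sides, 2 were higher and 2 lower (median -0.17). Against LN cells with a Ccl5 UMI, 2 were higher and 5 lower (median -0.78).

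Genes of one-carbon and amino acid supply were higher for 3 of 14 kept (21.4%) and lower for 1 (7.14%), beside 15.5% and 11.2% of all genes kept. Psat1, an enzyme of serine synthesis, had 98.0 CPM in the tumor and 22.8 CPM in the LN (2.06), and Mthfd2, the mitochondrial folate enzyme, 88.7 and 28.2 CPM (1.62, beside 0.54 in the control). Of the 18 genes of the TCR complex and its proximal signaling none was higher and 5 were lower, with a median of -0.53. Of 15 genes that damp TCR signals 8 were higher and 2 lower, among them Rgs16, a regulator of G proteins, with 522 and 1.86 CPM (7.51), and Cish, an inhibitor of cytokine signals, with 67.3 and 6.97 CPM (3.10). Of 17 galectin, annexin, S100 and metallothionein genes 13 were higher and none lower, with Lgals1 at 5021 and 185 CPM (4.76).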
